A study of Mus musculus with 8 samples.

Results

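The transcription factors described here are 10 regulators linked to the identity of hair follicle stem cells (HFSCs), namely Sox9, Lhx2, Tbx1, Nfatc1, Foxc1, Foxp1, Runx1, Nfib, Nfix and Gata6. They were chosen by gene symbol and followed through all 8 bulk RNA-seq libraries of the series. All 10 had a row among the 23861 genes of the HFSC table, and 9 had a row among the 16231 genes of the table of epidermal stem cells (EpdSCs). Tbx1 in EpdSCs was not analysed here. The cells were sorted from telogen (resting-phase) dorsal skin of untreated mice, HFSCs as CD34+ CD49f+ Sca-1- cells and EpdSCs as CD34- CD49f+ Sca-1+ cells. The 4 groups held 2 libraries each, namely WT HFSCs from mice aged 2 months, Msx2-KO HFSCs from mice aged 6 months, and WT and Msx2-KO EpdSCs from mice aged 6 months, and the WT mice were C57BL/6J matched by hair cycle. The Msx2-KO mice were homozygous for a constitutive targeted allele with a neomycin cassette placed upstream of exon 2, so that the allele was not restricted to either cell type. In HFSCs age and genotype therefore cannot be told apart, whereas both EpdSC groups had the same age. In both cell types the names of the value columns ran in different series for WT and Msx2-KO libraries. What the series stand for is not said, so a difference in handling cannot be told apart from genotype in either cell type. The labels do not say whether libraries came from separate mice, so every p-value measures only the spread between these libraries.

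In the bulge, the resting niche of the hair follicle, a set of transcription factors keeps HFSCs apart from the neighbouring epidermal fates and holds them in quiescence. Sox9 and Lhx2 specify and maintain bulge cells, and Nfatc1, Foxc1 and Foxp1 are known for their part in keeping these cells out of the cell cycle. Runx1 promotes the step from rest to growth, the nuclear factor I proteins Nfib and Nfix hold open the enhancers of stem cell genes, and Gata6 marks the duct and upper follicle above the bulge. Msx2 itself is a homeobox transcription factor of the follicle.

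Promoter sequences from RefSeq on GRCm38.p6 matched 6 of the 10 factors, with 14 start sites among them. The windows of Lhx2, the factor with the widest gap between the cell types, and Nfix, the factor with the largest fitted difference between genotypes in EpdSCs, are shown because they differ in base composition. Each of the windows shown covers the 250 bases before a start site, overlaps no annotated exon and is written 5′ to 3′ on the gene's strand, with CpG dinucleotides in capitals. The Lhx2 window lies at chr2:38339031-38339280 on the plus strand and the Nfix window, before the most distal of its start sites given, at chr8:84780083-84780332 on the minus strand. In the GENCODE M21 annotation the Lhx2 window ends at the base before the gene, and the Nfix window lies in an intron of the longest Nfix locus.
Lhx2: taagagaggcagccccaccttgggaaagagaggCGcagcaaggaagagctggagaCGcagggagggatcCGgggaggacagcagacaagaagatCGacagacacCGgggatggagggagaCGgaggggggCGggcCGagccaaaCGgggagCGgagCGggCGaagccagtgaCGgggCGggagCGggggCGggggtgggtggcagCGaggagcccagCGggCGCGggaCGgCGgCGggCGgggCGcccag
Nfix: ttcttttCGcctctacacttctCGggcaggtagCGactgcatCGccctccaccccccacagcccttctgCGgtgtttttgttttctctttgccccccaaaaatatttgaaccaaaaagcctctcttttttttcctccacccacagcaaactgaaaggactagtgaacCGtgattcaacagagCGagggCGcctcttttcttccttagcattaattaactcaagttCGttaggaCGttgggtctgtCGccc
The Lhx2 window had a GC content of 72.8% with 25 CpG dinucleotides, and the Nfix window 49.2% with 11, beside medians of 52.4% and 6 over the 32841 windows of the same length. The 6-letter homeobox motif TAATTG, searched on both strands, was in neither window, and 7.17% of all windows held it. Among the 14 windows of the factors, it was found in 2, both of Foxp1. The other letters searched on both strands were AACAAT for SOX proteins, TGTGGT for RUNX proteins and AGATAA for GATA proteins, which were in 9.43%, 14.0% and 9.99% of all windows. No motif holds another as spelled, and none of these 3 was found in the Lhx2 or Nfix window shown. Elsewhere among the 14 windows, TGTGGT was in another window of Nfix and in that of Foxc1, and AACAAT in a window of Foxp1. Which start site the cells used was not measured.

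Totals were 3132974 to 11016659 estimated counts in the HFSC libraries and 15213662 to 21092701 in the EpdSC libraries after division by the worth of 1 read. Genes with at least 1 read numbered 22447 and 19595 in WT HFSCs against 11409 and 14251 in those labelled Msx2-KO. In EpdSCs the numbers were 15790 and 15935 against 12716 and 15165. Fewer genes were thus detected in the Msx2-KO-labelled libraries of both cell types, and the part of this in low and zero values was not tested. Msx2 had 53 and 7 estimated counts in WT HFSCs against 40 and 18 in HFSCs labelled Msx2-KO. In EpdSCs its normalized value was 58.5 and 85.4 in WT against 150.3 and 22.2 in the Msx2-KO-labelled libraries. The groups overlapped in both cell types, and gene totals do not separate the targeted exon from the rest of the transcript, so the groups are named by their labels. The HFSC Msx2-KO-labelled libraries correlated at r = 0.577 with each other on the log2 scale and the WT pair at 0.927, while the EpdSC pairs correlated at 0.844 and 0.952. Between genotypes the correlations were 0.601 to 0.632 in HFSCs and 0.613 to 0.742 in EpdSCs. The HFSC Msx2-KO-labelled libraries were therefore less like each other than like the WT libraries. Mitochondrial ribosomal RNA took 8.94% and 36.3% of WT and 49.4% and 53.2% of Msx2-KO-labelled HFSC counts, and 23.5% and 16.4% of WT and 0.073% and 6.18% of Msx2-KO-labelled EpdSC values. The groups did not overlap in this share, and its part in the results was not tested. Cd34, the gene of a surface protein used in the HFSC gate, had 3004 and 2670.4 normalized counts in WT HFSCs against 1084 and 879 in those labelled Msx2-KO.

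In WT libraries 7 of the 9 factors with values in both tables were higher in both HFSC libraries than in both EpdSC libraries. These levels are set side by side without a test, because the tables were normalized separately, and are given as CPM, scaled in each library to the summed values of 15321 shared genes without mitochondrial and ribosomal RNA genes. Among 10031 shared genes with a mean of at least 10 CPM, 34.5% had both WT HFSC libraries above both WT EpdSC libraries. The same 7 factors were higher in all 4 HFSC libraries than in all 4 EpdSC libraries, an order that 10.7% of those genes had. The WT HFSC mice were younger than the WT EpdSC mice.

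Lhx2, a LIM-homeodomain factor, had the widest gap, with 497.7 and 379 CPM in WT HFSCs against 0.721 and 3.20 in WT EpdSCs, a ratio of means of 224. Sox9, an HMG-box factor, stood at 857 and 705 CPM in WT HFSCs and at 42.5 and 66.3 in WT EpdSCs, a ratio of 14.3. Foxc1, a forkhead factor, followed with a ratio of 13.4, Runx1 with 8.26, Nfatc1 with 7.67, Foxp1 with 6.56 and Nfib with 5.10. Nfix overlapped between the WT cell types, at 1007 and 856 CPM in HFSCs and 809 and 1050.4 in EpdSCs, and Gata6 overlapped as well. In the Msx2-KO-labelled libraries, HFSCs were above EpdSCs for 8 of the 9 factors, Nfix now among them with a ratio of 10.5, beside 36.1% of the 10031 shared genes.

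Per kilobase of exon, Sox9 and Nfib led in WT HFSCs with 189 and 183 CPM per kilobase, and their ranges overlapped. Nfix followed at 127, then Lhx2 at 99.8, Tbx1 at 80.3 and Nfatc1 at 70.6, and no neighbours among the last 3 were separated. Foxc1 at 48.1, Foxp1 at 35.0, Runx1 at 18.3 and Gata6 at 1.09 were each separated from the factor before. In WT EpdSCs the order began with Nfix at 126, Nfib at 35.9 and Sox9 at 13.2 CPM per kilobase, and ended with Lhx2 at 0.446. Foxc1 and Runx1, and Runx1 and Gata6, were not separated there. In EpdSCs labelled Msx2-KO, Nfib stood first at 19.6 and Foxp1 next at 16.2, with no separation between neighbours among the first 5 factors.

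**Figure D1:**
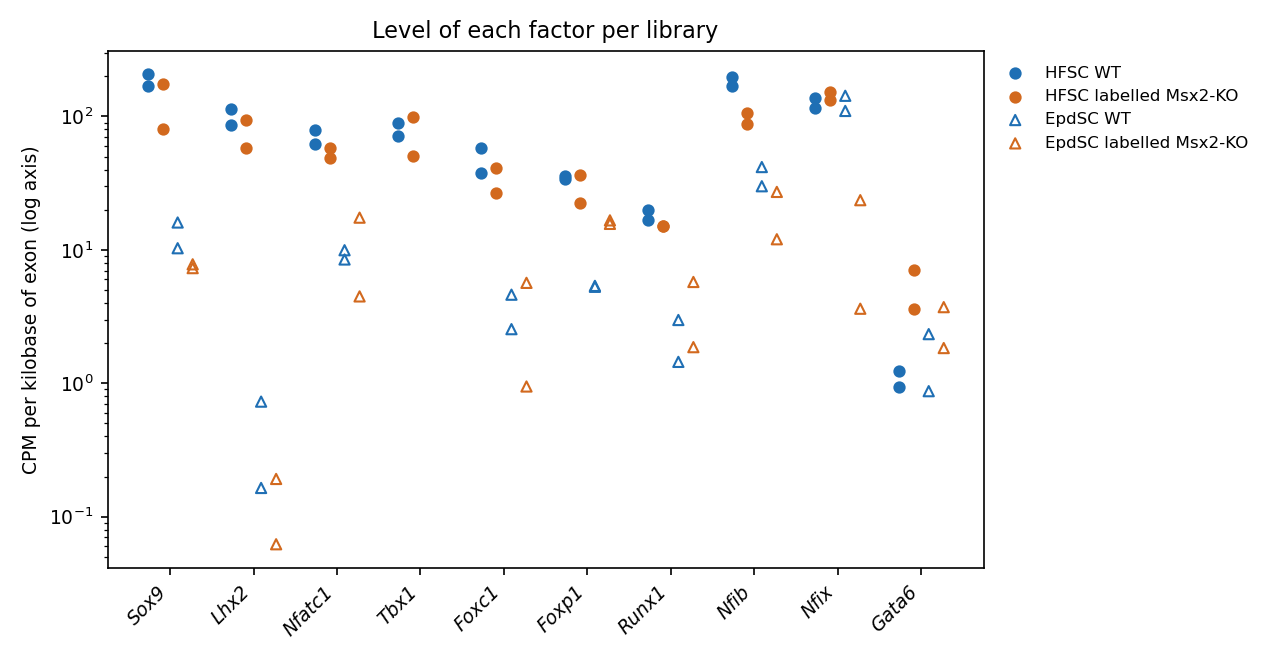
Level of each factor in every library, as CPM of shared genes per kilobase of exon on a log axis, with filled circles for HFSCs, open triangles for EpdSCs, blue for WT and orange for Msx2-KO-labelled libraries. The circles of Sox9, Lhx2, Nfatc1, Foxc1, Foxp1, Runx1 and Nfib all lie above the triangles of the same gene, while Nfix and Gata6 overlap (Tbx1 has no EpdSC value).

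In HFSCs, the mean of 8 of the 10 factors was lower in the Msx2-KO-labelled libraries, and none passed the test. Of all genes tested, 45.4% had a log2 fold change above 0. Calls (in both cell types) needed a fold change over 2 and an adjusted p (Benjamini-Hochberg) under 0.05, and edgeR's quasi-likelihood test called 0% of the 14422 genes tested. By that test 0 factors were called, 1 had an unadjusted p under 0.05 (2614 of all genes did), and DESeq2 and limma-trend called 0 factors as well. The groups did not overlap for 6 factors, 5 lower and 1 higher in the Msx2-KO-labelled libraries, beside 33.5% and 17.5% of all genes tested. On the CPM scale used between the cell types, a comparison added after seeing the data, Sox9 and Lhx2 overlapped, which left 3 factors lower and 1 higher beside 27.7% and 22.4% of the 10031 shared genes. The median log2 fold change of the factors was -0.36, beside -0.14 over all genes tested. Of the bulge markers 9 of 10 were lower without overlap and 0 were called, and their summed level was 19487 and 20168 CPM in WT against 9525 and 9731 in the Msx2-KO-labelled libraries. The part of these marker shifts in the factors' values was not tested, and in bulk libraries fewer cells of a type and less RNA per cell cannot be told apart.

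Among the factors that specify the bulge, Sox9 had normalized counts of 2607 and 2492 in WT against 2268 and 1091 in the Msx2-KO-labelled libraries. Both latter libraries lay below WT, and the first of them was 2.08 times the second. The log2 fold change was -0.60 (SE 0.42, n = 2 per group, adjusted p = 0.620 by edgeR), and it became -1.25 with an adjusted p of 0.0385 when Msx2-KO replicate 1 was left out, in a fit that called 36.6% of all genes. Without Msx2-KO replicate 2 it was -0.18 with an adjusted p of 0.659. Lhx2 had 1514 and 1341 normalized counts in WT against 1296 and 836 in the Msx2-KO-labelled libraries, without overlap. Its log2 fold change of -0.42 (SE 0.31) had an adjusted p of 0.634. Tbx1, a T-box factor that limits stem cell loss in repeated hair cycles, gave 761 and 1114 against 552 and 1138, so that the groups overlapped widely. Its log2 fold change was -0.15 (SE 0.45), and the sign turned when WT replicate 2 or Msx2-KO replicate 1 was left out.

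None of the quiescence factors or Runx1 passed the test. Nfatc1, which acts downstream of BMP signals in the bulge, had 1795 and 1642 normalized counts in WT against 1346 and 1208 in the Msx2-KO-labelled libraries. The groups did not overlap and both pairs were tight, with a log2 fold change of -0.43 (SE 0.22, adjusted p = 0.450 by edgeR). Foxc1 gave 673 and 1207 against 489 and 784, and Foxp1 1509.6 and 1648 against 1559 and 1016. Both overlapped between the groups, with log2 fold changes of -0.56 (SE 0.43) and -0.29 (SE 0.30). Runx1, a Runt-domain factor active at the start of hair growth, had 729 and 708 in WT against 569 and 599 in the Msx2-KO-labelled libraries. Its groups were apart by little, at a log2 fold change of -0.30 (SE 0.21).

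Nfib had the lowest unadjusted p of the 10 factors in HFSCs. Its normalized counts were 8921 and 8990.4 in WT against 4921 and 4281 in the Msx2-KO-labelled libraries, so that both groups were tight and lay apart. The log2 fold change was -0.96 (SE 0.29, adjusted p = 0.188 by edgeR). Its family member Nfix had 3064 and 3026 normalized counts in WT against 3056 and 3696 in the Msx2-KO-labelled libraries, and the groups overlapped. The log2 fold change of Nfix was 0.15 (SE 0.25), a sign that turned when libraries were scaled by their totals (-0.72), which also lowered the median of all genes to -1.002. Nfix took 25.6% and 25.2% of the summed Nfib and Nfix values in WT HFSCs and 38.3% and 46.3% in HFSCs labelled Msx2-KO.

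Gata6 was the factor with the largest fold difference in HFSCs and the lowest level. It had 30 and 11 estimated counts in WT against 215 and 59 in the Msx2-KO-labelled libraries, or 24.5 and 21.8 against 143 and 76.6 after normalization. Both Msx2-KO-labelled libraries lay above both WT libraries, with a log2 fold change of 2.24 (SE 0.85, adjusted p = 0.295 by edgeR). It passed the test when Msx2-KO replicate 1 was left out, with an adjusted p of 0.0383, and when replicate 2 was left out, with 0.00425, but these fits called 36.6% and 59.1% of all genes. Without WT replicate 1 its adjusted p by edgeR was 0.9998 and without WT replicate 2 it was 1. Of the 7 markers of isthmus and infundibulum, where Gata6 is known to be expressed, 6 were higher without overlap, beside 17.5% of all genes tested. The isthmus and infundibulum sum was 717 and 776 CPM in WT against 3406 and 2980 in the Msx2-KO-labelled libraries. Of the 8 sebaceous gland markers, 7 were higher and 1 lower without overlap, beside 17.5% and 33.5% of all genes tested. The lower one was Scd3, which was not tested, at 5 and 2.04 estimated counts in WT and 0 in both Msx2-KO-labelled libraries. The sebaceous sum was 158 and 164 CPM in WT against 2626 and 1970, of which Scd1 had 35.4 and 34.1 against 1919 and 1415. Suprabasal markers summed to 387 and 375 CPM in WT against 1592 and 5875 in the Msx2-KO-labelled libraries, with 6 of 8 higher without overlap. Cycling markers summed to 119 and 114 CPM in WT against 1046 and 791, of which Mki67 had 51.0 and 67.7 against 825 and 440. Of the 6 cycling markers 4 were higher without overlap, while Pcna and Cdk1 overlapped. The part of these cell types in the Gata6 values was not tested.

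**Figure D2:**
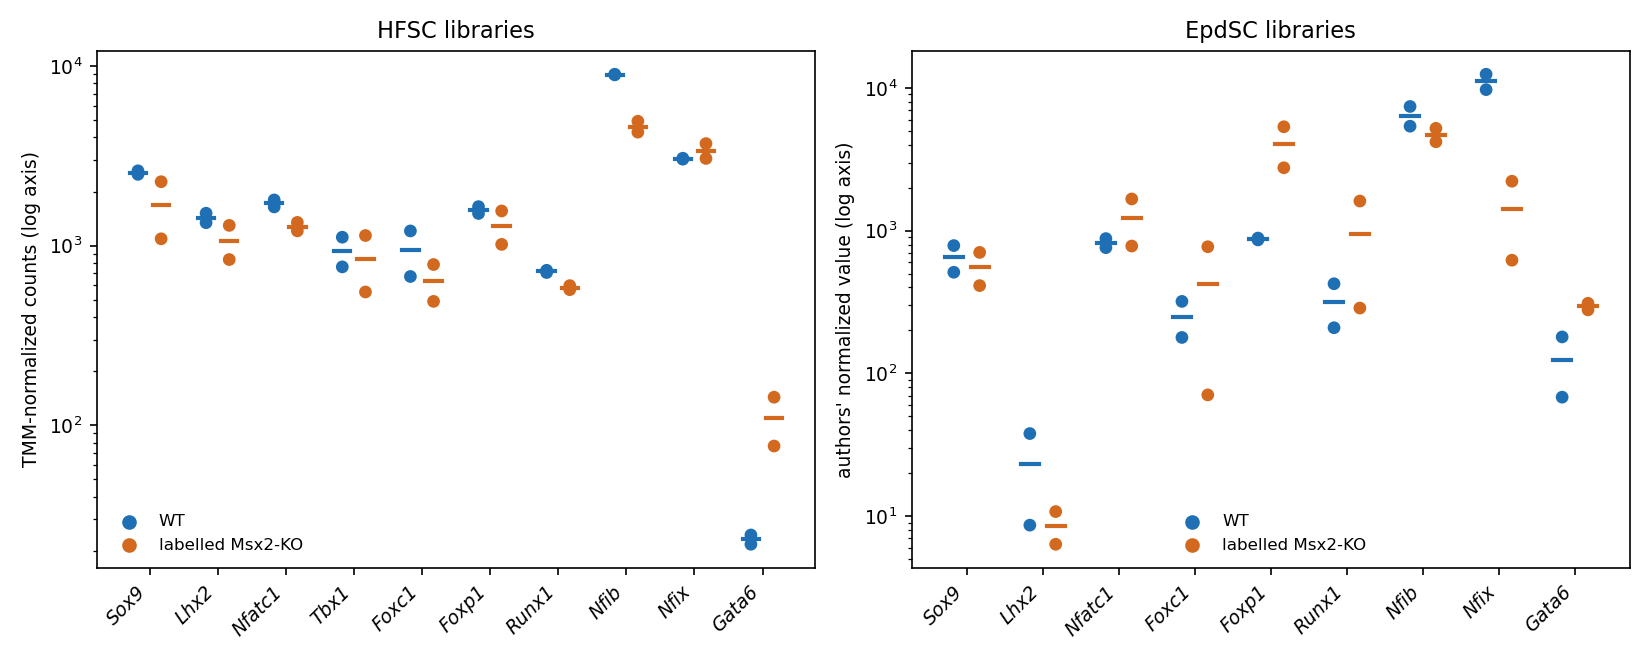
Value of each factor in each library, on log axes, as TMM-normalized counts in HFSCs (left) and the authors' normalized values in EpdSCs (right), with dots for libraries, short lines for means of 2, blue for WT and orange for Msx2-KO-labelled libraries. In HFSCs the groups lie apart for Sox9, Lhx2, Nfatc1, Runx1, Nfib and Gata6, and in EpdSCs for Foxp1, Nfib, Nfix and Gata6.

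In EpdSCs the 2 largest fitted differences were those of Nfix and Foxp1, in opposite directions, and neither passed the test with all libraries. limma on log2(value + 1) called 9.35% of the 16231 genes, 1.57% higher and 7.78% lower, and 0 of the 9 factors. Past a fold change of 2 at an unadjusted p under 0.05 were 2 factors, 1 higher and 1 lower, beside 12.2% and 23.1% of all genes. On the same values divided by the worth of 1 read, edgeR called 0 factors and DESeq2 called 2, Nfix and Foxp1, beside 28.0% of all genes it tested. The groups did not overlap for 4 factors, 2 higher and 2 lower in the Msx2-KO-labelled libraries, beside 27.8% and 44.5% of all genes. On the CPM scale Gata6 overlapped and Sox9 was lower, so that 1 factor was higher and 3 were lower, beside 26.5% and 49.0% of the 10031 shared genes. Over all genes the EpdSC log2 fold change had a median of -0.64, and that of the factors -0.03. Of the 9 factors 4 had a log2 fold change above 0, beside 40.3% of all genes.

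Nfix had normalized values of 9719 and 12455 in WT EpdSCs against 621 and 2219 in those labelled Msx2-KO. Both latter libraries lay far below WT and differed 3.57 times from each other. The log2 fold change was -3.23 (SE 0.82, n = 2 per group, adjusted p = 0.0890 by limma), or -2.59 relative to the median of all genes. It was called when either Msx2-KO library was left out, at -2.31 without replicate 1 (adjusted p = 0.0369) and -4.14 without replicate 2 (adjusted p = 0.0110), and by DESeq2 at -2.97 (adjusted p = 0.00448). These fits called 37.6%, 63.9% and 28.0% of all genes in that order. Over the 14 alternatives the adjusted p of Nfix ranged from 0.00448 to 0.469. Nfib had 5390 and 7407 in WT against 4192 and 5207 in the Msx2-KO-labelled libraries, which were lower by a narrow margin. Its log2 fold change of -0.44 (SE 0.50) had an adjusted p of 0.547. The share of Nfix in the sum of both was 64.3% and 62.7% in WT EpdSCs and 12.9% and 29.9% in those labelled Msx2-KO. The difference between the cell types in this genotype contrast was not tested, since the tables were deposited in different units.

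**Figure D3:**
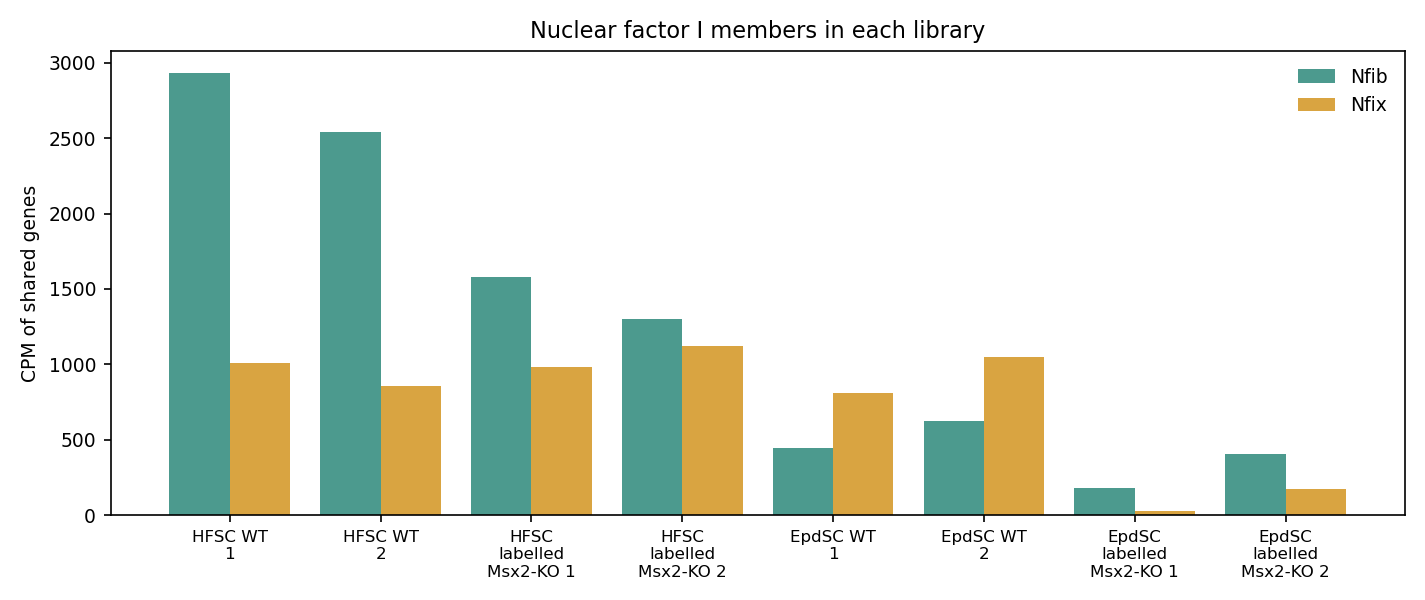
Bars give the CPM of Nfib (green) and Nfix (yellow) in each of the 8 libraries, on an axis from 0. Nfib stands above Nfix in all 4 HFSC libraries and in both EpdSC Msx2-KO-labelled libraries, and below it in both WT EpdSC libraries.

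Foxp1 had normalized values of 888 and 862 in WT EpdSCs against 5339 and 2757 in those labelled Msx2-KO. Both Msx2-KO-labelled libraries were above WT and differed 1.94 times from each other. The log2 fold change was 2.13 (SE 0.57, adjusted p = 0.0970 by limma), and its adjusted p was 0.0343 without Msx2-KO replicate 1 and 0.0112 without replicate 2, in the fits that called 37.6% and 63.9% of all genes. DESeq2 gave 2.18 (adjusted p = 0.00893), and the adjusted p over all 14 alternatives ranged from 0.00893 to 0.453. Gata6 had 68.2 and 180.2 in WT against 279 and 310.0 in the Msx2-KO-labelled libraries, without overlap, at a log2 fold change of 1.40 (SE 0.68, adjusted p = 0.220 by limma) that was 0.70 without WT replicate 1 and 2.09 without WT replicate 2. Isthmus and infundibulum markers summed to 780.0 and 889 CPM in WT EpdSCs against 608 and 534 in those labelled Msx2-KO. Of these 7 markers, 2 were higher (Plet1 and Lgr6) and 4 lower (Lrig1, Krt17, Cst6 and Defb6) without overlap. These counts stood beside 27.8% and 44.5% of all genes. Sebaceous gland markers summed to 564 and 614 CPM in WT EpdSCs against 1088 and 861. Only 4 of the 8 sebaceous markers had EpdSC values, of which 2 were higher (Scd1 and Mgst1) and 2 lower (Plin2 and Fasn) without overlap, and Scd1 alone had 298 and 377 CPM in WT against 1006 and 780 in the Msx2-KO-labelled libraries. The part of these cell types in the Gata6 values was not tested.

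The other 5 factors overlapped between the genotypes in EpdSCs. Sox9 had 511 and 786 in WT against 704 and 412 in the Msx2-KO-labelled libraries, a log2 fold change of -0.23 (SE 0.58) whose sign turned when WT replicate 2 or Msx2-KO replicate 2 was left out. Lhx2 was low throughout, with 8.67 and 37.9 against 6.37 and 10.8, at a log2 fold change of -1.06 (SE 0.89) that was -2.06 without WT replicate 1 and -0.053 without WT replicate 2. Nfatc1 had 760.4 and 880.2 in WT against 781 and 1667 in the Msx2-KO-labelled libraries, at a log2 fold change of 0.48 (SE 0.61) that was -0.056 after mitochondrial and ribosomal RNA genes were left out and the rest rescaled, which also moved the median of all genes from -0.64 to -1.14. Foxc1 and Runx1 each had 1 high and 1 low library labelled Msx2-KO. Foxc1 stood at 179 and 319.6 in WT against 772 and 70.8 in the Msx2-KO-labelled libraries, with a log2 fold change of -0.03 (SE 1.36) and the opposite sign under TMM factors (0.040). Runx1 had 209 and 425 in WT against 1612 and 287 in the Msx2-KO-labelled libraries, at 1.19 (SE 1.08) with all libraries and -0.054 without Msx2-KO replicate 1.

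**Figure D4:**
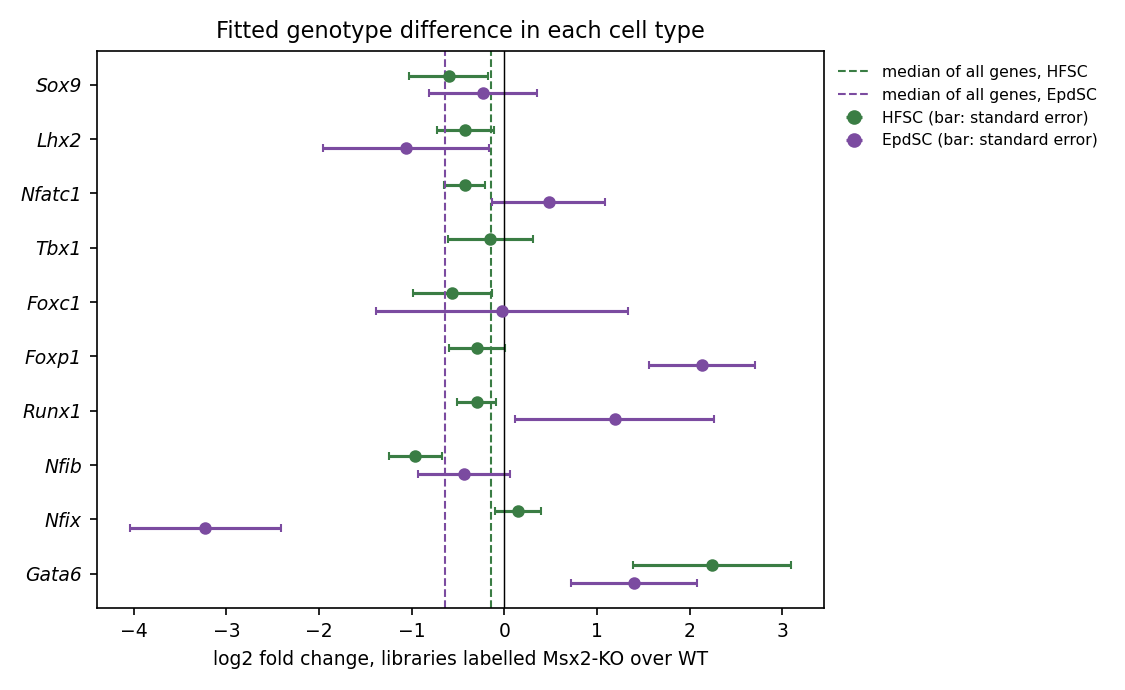
Fitted log2 fold change of each factor, Msx2-KO-labelled libraries over WT, in HFSCs (green) and EpdSCs (purple), with bars of 1 standard error and dashed lines at the median of all genes of each cell type. Nfix at -3.23 and Foxp1 at 2.13 in EpdSCs, and Gata6 at 2.24 in HFSCs, lie farthest from 0.

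Marker genes of the EpdSC libraries are given beside these values. Itga6, which encodes CD49f, had 8229 and 9959 in WT against 68397 and 32855 in the Msx2-KO-labelled libraries (adjusted p = 0.0890 by limma). Suprabasal markers summed to 25005 and 18299 CPM in WT against 4603 and 6412 in the Msx2-KO-labelled libraries. Of these 8 markers, 3 were called lower (Sbsn, Ivl and Dsc1), beside 7.78% of all genes. Interfollicular basal markers summed to 15944 and 19186 CPM in WT against 24788 and 33242. Of those 6 basal markers, 1 was higher (Krt14, 5980 and 7098 against 16805 and 21494 CPM) and 2 were lower without overlap on the CPM scale, among them Itgb4 at 618 and 933 against 7.86 and 89.7. On the normalized values Krt5 and Ly6a were higher as well. Of the 8 bulge markers, 6 were higher and 2 lower (Grem1 and Ccn2) without overlap on the normalized values, beside 27.8% and 44.5% of all genes. On the CPM scale 4 were higher and 2 lower, beside 26.5% and 49.0% of the 10031 shared genes. The bulge sum was 7508 and 9225 CPM in WT against 13430 and 17393, of which Krt15 had 6653 and 8117 against 9861 and 13887. Postn was called higher (457 and 488 against 10771 and 8326, adjusted p = 0.0281 by limma), beside 1.57% of all genes. Ccn2 had 78.0 and 63.5 in WT against 2.55 and 12.1 in the Msx2-KO-labelled libraries. Among the 7 immune markers, 6 were lower without overlap, beside 44.5% of all genes. They summed to 76.1 and 8.72 CPM in WT against 0 and 0.737 in the Msx2-KO-labelled libraries. Of the 6 cycling markers, 3 were higher and 1 lower without overlap on the normalized values. The cycling sum was 368 and 342 CPM in WT against 337 and 301. Cdk1 was called higher (log2 fold change 4.13, SE 0.62, adjusted p = 0.0416 by limma), while Mki67 was at -5.49 (SE 1.90) and not called. The part of these shifts in the values of Nfix and Foxp1 was not tested.

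**Figure D5:**
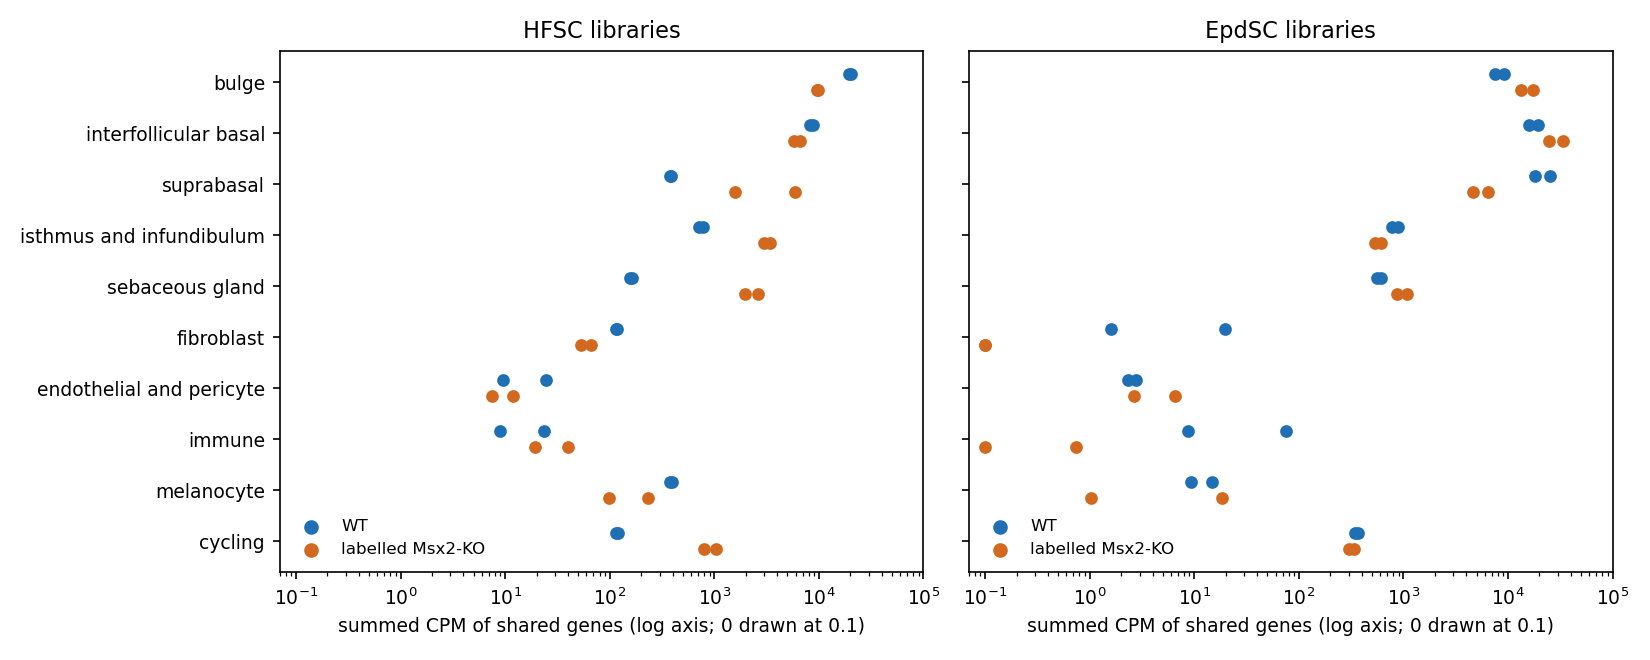
Summed level of each marker list in CPM of shared genes, on a log axis with 0 drawn at 0.1, in HFSC (left) and EpdSC (right) libraries, blue for WT and orange for Msx2-KO-labelled libraries. In HFSCs the bulge sum is lower and the sebaceous, isthmus, suprabasal and cycling sums are higher in the Msx2-KO-labelled libraries, while in EpdSCs the suprabasal and immune sums are lower (the fibroblast sum there is Vim alone).

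Family relatives of the factors were examined in the same way, from a list of 31 genes. In HFSCs 19 were tested and 0 called by edgeR, with a median log2 fold change of 0.46 beside -0.14 over all genes, and 0 were past a fold change of 2 at an unadjusted p under 0.05, beside 5.02% higher and 12.2% lower of all genes. In EpdSCs 18 were tested and 0 called by limma. Past those unadjusted thresholds 4 were higher (Sox7, Sox21, Nfia and Cbfb) and 3 lower (Nfat5, Foxp4 and Tbx3), named after their values were seen. Of all genes 12.2% were higher and 23.1% lower past them. The most abundant relatives in EpdSCs were Gata3, Sox21 and Nfia. Nfia, a further nuclear factor I gene, had 1585 and 1849 in WT EpdSCs against 4052 and 6631 in those labelled Msx2-KO, without overlap and in the direction opposite to Nfix (log2 fold change 1.60, SE 0.53, adjusted p = 0.131 by limma). Sox21 had 1838 and 2331 against 7179 and 8978, also without overlap (1.96, SE 0.49, adjusted p = 0.0877). Gata3 differed by 0.46 (SE 0.47). In HFSCs the most abundant relatives were Nfat5, Gata3 and Nfic, with log2 fold changes of -0.56, 0.52 and -0.14. Cbfb, the partner subunit of Runx1, was named after its values were seen, with 604 and 622 in WT EpdSCs against 6286 and 3811 in those labelled Msx2-KO (2.99, adjusted p = 0.0534).

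Of 19 other regulators of bulge and hair germ, 18 were tested in HFSCs and 15 in EpdSCs, and 0 were called in either by edgeR or limma. Past the unadjusted thresholds, 1 was higher (Barx2) and 2 lower (Zfp36l1 and Msx1) in HFSCs, beside 5.02% and 12.2% of all genes. In EpdSCs 5 were higher (Hopx, Foxq1, Zfp36l1, Id1 and Id2) and 0 lower, beside 12.2% and 23.1% of all genes. These genes were again named from their values. The median log2 fold change of the list was -0.24 in HFSCs and 1.47 in EpdSCs, beside -0.14 and -0.64 over all genes. In EpdSCs 11 were higher and 1 lower without overlap, beside 27.8% and 44.5% of all genes. On the CPM scale 9 were higher and 1 lower, beside 26.5% and 49.0% of the 10031 shared genes. Zfp36l1, an RNA-binding regulator of mRNA decay, had 1014 and 1149 normalized counts in WT HFSCs against 523 and 439 in those labelled Msx2-KO (log2 fold change -1.17, SE 0.23, adjusted p = 0.143 by edgeR). In EpdSCs the order was opposite, with 2253 and 2893 in WT against 11680 and 10672 in the Msx2-KO-labelled libraries (2.13, SE 0.48, adjusted p = 0.0754 by limma). Id2, a BMP-responsive inhibitor of helix-loop-helix factors, had a log2 fold change of -1.68 (SE 0.79) in HFSCs, and Vdr, the vitamin D receptor, 0.42 in HFSCs and 1.32 in EpdSCs. Foxq1, a forkhead factor of the hair shaft, had 338 and 855 in WT EpdSCs against 29725 and 2792 in those labelled Msx2-KO, with 1 library far above the rest.

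Genes tied to the factors in the bulge, such as BMP ligands, cell cycle inhibitors and adhesion genes, numbered 19 on the list used. In HFSCs 18 were tested with a median log2 fold change of -0.21, beside -0.14 over all genes. In EpdSCs 16 were tested with a median of 0.09, beside -0.64, and 0 were called in either cell type. Past the unadjusted thresholds, 1 was higher (Tle1) and 3 lower (Col17a1, Tle4 and Dkk3) in HFSCs, beside 5.02% and 12.2% of all genes. In EpdSCs 2 were higher (Cdk4 and Dkk3) and 0 lower, beside 12.2% and 23.1% of all genes. These genes were also named from their values. Col17a1, a hemidesmosomal collagen that anchors HFSCs, had 22463 and 21405 normalized counts in WT HFSCs against 10659 and 11092 in those labelled Msx2-KO, without overlap (log2 fold change -1.01, SE 0.37, adjusted p = 0.273 by edgeR). Dkk3 had 1847 and 1408 against 807 and 691 (-1.12, SE 0.26, adjusted p = 0.143). Cdh1, which encodes E-cadherin, overlapped in HFSCs at -0.04. In EpdSCs Col17a1, Cdh1 and Stat3 were the most abundant of this list, with log2 fold changes of -0.24, 0.31 and 1.11.

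Genes whose levels ran most like those of Sox9, Lhx2 and Nfatc1 were sought among the 10031 shared genes, by the root mean square difference of centred log2(CPM + 1) over the 8 libraries. Usp54 was nearest to Sox9 at 0.235, with 622 and 685 CPM in WT HFSCs, 472 and 288 in HFSCs labelled Msx2-KO, and 36.5 and 37.4 in WT EpdSCs against 24.8 and 23.4 in EpdSCs labelled Msx2-KO. Tiam2 and Col4a4 followed at 0.391 and 0.407. For Lhx2 the nearest were Grem1 at 0.423, Tmtc1 at 0.601 and Ltbp2 at 0.626, and for Nfatc1 they were Sorl1 at 0.294, Smad7 at 0.311 and Zfp275 at 0.435. These libraries share 2 cell types and 2 genotypes, and no test was made.

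Several of the loci hold other annotated genes, and the use of strand in counting is not given in the sources used here. Nfib, on chromosome 4 from 82290173 to 82705750 of GRCm38 on the minus strand, contains the antisense gene Gm11266, which had 59 and 16 estimated counts in WT HFSCs against 40 and 61 in those labelled Msx2-KO. Lhx2, on chromosome 2 from 38339281 to 38369733 on the plus strand, contains the antisense gene Gm13584, with 72 and 15 counts in WT HFSCs against 30 and 0 in those labelled Msx2-KO. Nfix, on chromosome 8 from 84699876 to 84800344 on the minus strand, overlaps G430095P16Rik on the other strand, at 34.7 and 23.7 in WT EpdSCs against 0 and 19.1 in those labelled Msx2-KO. Foxp1, on chromosome 6 from 98925338 to 99522721 on the minus strand, overlaps Gm20696 on its own strand, at 80.5 and 123 in WT EpdSCs against 0 and 10.2 in those labelled Msx2-KO. In each case the overlapping gene stood far below the factor itself. Runx1 on chromosome 16 contains the antisense gene Gm26626, with 3.11 and 2.04 counts in WT HFSCs and 0 in both Msx2-KO-labelled libraries.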

How the data were processed

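HFSCs and EpdSCs were sorted from mouse dorsal skin and profiled by bulk RNA-seq, with 2 WT and 2 Msx2-KO libraries per cell type grouped by the labels. The authors prepared libraries with a stranded SMARTer total RNA kit and aligned reads to GRCm38/mm10 with STAR (2.7.3a in the submitters' processing notes) in Partek Flow, with GENCODE genes. For HFSCs the authors deposited an estimated count per gene, not normalized, in which 73.4% to 90.8% of the values were whole within 0.05. The deposited EpdSC values were a normalized signal, on a scale set by the authors where 1 read was worth 0.674 to 1.27 depending on the library. The authors' own comparisons (fold changes, p-values and FDR values) were not used. The number of value columns not mapped to a sample was 0.

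HFSC counts were rounded and tested with edgeR 4.0.16 (quasi-likelihood, TMM, filterByExpr), and EpdSC values with limma 3.58.1 on log2(value + 1), where the pseudocount understates the change of low genes. Filtering on low counts left all 10 factors in HFSCs. P-values were adjusted by Benjamini-Hochberg over all genes tested. The smallest two-sided p of an exact permutation test is 0.333 at 2 against 2. Levels between cell types used shared genes after 23 mitochondrial and ribosomal RNA genes were left out, and exon lengths came from GENCODE M21. The factors and lists were chosen with earlier results of these data known. Genes named were the 10 factors, genes called or otherwise the 3 most abundant of each list of regulators, the 3 genes most like Sox9, Lhx2 and Nfatc1, and overlapping genes. The marker lists were for the sort, bulge, interfollicular basal, suprabasal, hair germ, isthmus and infundibulum, sebaceous gland, fibroblast, endothelial and pericyte, immune, melanocyte and cycling cells, and single markers were named after their values were seen. Both designs were tested on simulated data, whose spread between libraries was set below that of the HFSC libraries (common dispersion 0.823). Alternatives covered DESeq2 1.42.0, other normalizations, filters and pseudocounts, limma-trend (prior count 3), a replicate block, and each library left out. Fits of edgeR and DESeq2 to EpdSC values divided by the worth of 1 read, and overlap on the CPM scale, were added after seeing the data. R 4.3.3, Python 3.11.15 and matplotlib 3.10.9 were used. Protein sequences were not used here.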

Additional observations from a re-analysis of the deposited data

How the results depend on the processing

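The number of HFSC genes called was 0 with edgeR, TMM and all libraries, 822 with DESeq2, 51 with library totals, 2 with at least 10 counts in every library, 1407 with limma-trend, and 132 to 9272 with 1 library left out. HFSC factors called were 0 under each other setting and 0 to 2 with 1 library left out, namely Sox9 and Gata6 without Msx2-KO replicate 1 (log2 fold changes -1.25 and 1.69) and Gata6 without replicate 2 (2.61). The number of EpdSC genes called was 1518 with limma, 0 with edgeR on values divided by 1 read's worth, 4362 with DESeq2 on them, and 0 to 10376 with 1 library left out. It was 0 without either WT library, 6099 without Msx2-KO replicate 1 and 10376 without replicate 2. EpdSC factors called were 0 to 2 with 1 library left out and 2 with DESeq2, in each case Nfix and Foxp1. When a library is left out, the lone one left is assumed to vary like the other group.

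Over genes, the deviations of same-numbered libraries from their group means correlated at -0.06 in HFSCs and -0.02 in EpdSCs. With 2 libraries per group this is a single value per cell type, so it cannot decide whether the numbers pair libraries. A replicate block gave 231 HFSC genes and 1271 EpdSC genes, and 0 factors in either. The adjusted p of Gata6 in HFSCs was 0.942 with the block by edgeR.

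In EpdSCs the sign turned for Foxc1 (0.011 with a pseudocount of 10, 0.040 with TMM factors, 0.64 with edgeR, 0.72 with DESeq2, and -1.74 to 1.69 with 1 library left out). They also turned for Nfatc1 (-0.056 without mitochondrial and ribosomal RNA genes, where the median of all genes moved from -0.64 to -1.14, and -0.068 to 1.03 with 1 library left out), Sox9 (-0.62 to 0.15) and Runx1 (-0.054 to 2.43). In HFSCs they turned for Nfix (-0.72 with library totals, and -0.0016 to 0.25 with 1 library left out) and Tbx1 (-0.77 to 0.25). The cause was not tested. The other factors kept their sign under the settings run. The 7 factors higher in WT HFSCs stayed so under both other denominators.

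Among further marker lists in HFSCs, hair germ markers summed to 416 and 522 CPM in WT against 326 and 384 in the Msx2-KO-labelled libraries. Fibroblast markers summed to 115 and 116 against 66.6 and 53.3. Endothelial and pericyte markers (24.7 and 9.60 against 12.0 and 7.51) and immune markers (23.4 and 8.95 against 39.6 and 19.4) overlapped. Interfollicular basal markers summed to 8817 and 8140 against 6660 and 5751, with 1 of 5 higher and 3 lower without overlap. Melanocyte markers summed to 391 and 377 against 231 and 98.8, of which Mitf had 358 and 322 against 83.5 and 64.8. Of these 6 melanocyte markers 3 were lower without overlap, while Dct and Sox10 overlapped. Of the 10031 shared genes, 22.4% were higher and 27.7% lower without overlap on this scale.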
